A study of Mus musculus with 9 samples.

Results

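The clustered histone genes are 70 mouse genes whose symbols begin with Hist1h, Hist2h, Hist3h or Hist4h, taken by symbol from the 54134 entries of a count table of poly(A)-selected RNA. They comprise 6 genes of the linker histone H1, 20 of H2A, 19 of H2B, 12 of H3 and 13 of H4. In GENCODE M21 on GRCm38, 56 lie on chromosome 13, 10 on chromosome 3, 3 on chromosome 11 and 1 on chromosome 6, and 67 are annotated as protein coding and 3 as pseudogenes. Over the 9 libraries together, 45 of the 70 had 10 or more counts, 14 had 1 to 9 and 11 were listed at 0. Only 21 passed the filter on low counts and were tested.

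RNA came from wild-type HT22 cells, named by the labels as a mouse hippocampal neuronal line and also as HT-4, grown in medium with serum. Control cells (3 libraries) had no intervention, the Hb group (3 libraries) received oxyhemoglobin, the oxygenated blood pigment released after a bleed, and the Hb+NTR1 group (3 libraries) received oxyhemoglobin together with NTR1, an agent that the series title writes as NGR1. The sources used here give no doses or times, and no group received the agent alone. Whether the replicates were grown as separate cultures is not said in the labels; p-values measure only how far these samples scatter, and that scatter may be technical.

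Most mRNAs end in a poly(A) tail. The mRNAs of the clustered histone genes are the known exception in animal cells: they are made in S phase, when new DNA needs new nucleosomes, and normally end just after a short stem-loop that is bound by the protein SLBP. Selection on poly(A) tails therefore recovers little of this RNA, and mainly the part that carries a tail, which some histone genes can form by using a signal further downstream. A count here is thus a measure of RNA captured with the poly(A) fraction, not of all histone mRNA in the cell.

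The stem-loop was found by sequence in the annotated 3' end of 44 members, by searching the transcript strand for GG, any 3 bases, T, any base, TT, any base, AG, any 2 bases and CC, which is 16 bases in all. It took 6 forms. The commonest, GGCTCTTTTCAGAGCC, was present in 26 members and none of them encodes H4, whereas the 11 H4 genes with a stem-loop had GGCCC or GGTCC as the first arm. The sites of 6 genes on which the results below turn are shown, read from the GENCODE M21 transcripts on GRCm38, with the stem-loop in capitals and up to 5 flanking bases in lower case.

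Hist1h1c, chr13:23739507-23739532, plus strand: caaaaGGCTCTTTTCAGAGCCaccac
Hist1h1d, chr13:23555782-23555807, plus strand: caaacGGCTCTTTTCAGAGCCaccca
Hist1h2ae, chr13:23570663-23570688, minus strand: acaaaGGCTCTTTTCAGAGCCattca
Hist1h2bk, chr13:22036295-22036320, plus strand: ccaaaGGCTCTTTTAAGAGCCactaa
Hist1h3c, chr13:23745042-23745067, minus strand: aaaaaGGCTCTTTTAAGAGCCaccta
Hist1h4i, chr13:22040961-22040986, minus strand: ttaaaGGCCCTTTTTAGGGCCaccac

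What follows the stem-loop differed more than the stem-loop itself. In Hist1h1c the stem-loop began 24 bases after the stop codon, and the annotated transcript ran on for another 840 bases that held 1 AATAAA, the letters of the usual polyadenylation signal. In Hist1h1d it ran on for 4884 bases with 7 copies of AATAAA. The annotated transcript of Hist1h2bk ended 30 bases after the stem-loop and that of Hist1h3c 74 bases after it, with 0 copies in each. An annotated AATAAA was present in the 3' end of 19 of the 70 members. Of the other 51 members, some have no annotated 3' untranslated region to search, as is the case for 16 members of the family.

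Counts on clustered histone genes were a very small part of each library. Between 511 and 704 counts per library fell on the 70 genes together, which was 0.00369 to 0.00505% of all counts, while library totals ran from 13415648 to 16893746 counts. In the 3 control libraries the 70 genes summed to 40.9, 38.4 and 41.8 CPM (counts scaled to library totals adjusted by TMM factors). The Hb libraries gave 36.5, 44.2 and 37.9 CPM, and the Hb+NTR1 libraries, named N1, N2 and N3 here, gave 39.5, 49.4 and 47.6 CPM. The 3 groups overlapped on this sum, with group means of 40.4 ± 1.80, 39.5 ± 4.08 and 45.5 ± 5.24 CPM (SD, n = 3 each). Without Hist1h1c, the sum was 35 ± 1.83 CPM in control, 33.8 ± 3.61 in Hb, then 23.9 ± 1.54 in Hb+NTR1, and every Hb+NTR1 library lay below every library of the other groups. So the near-equal totals held different mixtures: Hist1h1c supplied 10.7 to 16% of histone counts in the 6 control and Hb libraries and 43.8 to 48.9% in the Hb+NTR1 libraries. In such bulk samples, fewer cells that make a transcript and less transcript per cell cannot be told apart.

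**Figure D1:**
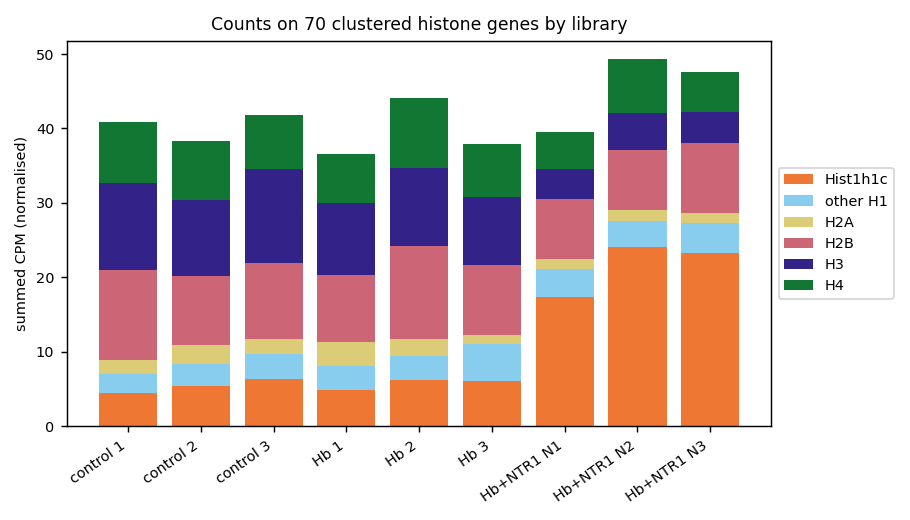
Bars give the summed normalised CPM of the 70 clustered histone genes in each of the 9 libraries, split into Hist1h1c, the other H1 genes and the 4 core histone families. Bar heights overlap between groups (36.5 to 49.4 CPM), while the Hist1h1c segment is above 17 CPM in every Hb+NTR1 library and below 7 CPM in the others.

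Oxyhemoglobin alone was compared with control to ask whether it moved these genes. Of the 21 tested members, 0 were called by edgeR's quasi-likelihood test at a Benjamini-Hochberg adjusted p under 0.05, by DESeq2 also 0, and 1 had an unadjusted p under 0.05. Across all 13810 tested genes, 3.65% were called in this comparison, so a count of 0 among 21 is near that background. The groups did not overlap in 1 of the 21, beside 19.6% of all tested genes. Log2 fold changes of the members ran from -0.80 to 0.63 with a median of 0.01. The member with the unadjusted p was Hist1h3g, an H3 gene, at 2.47, 2.19 and 1.5 CPM in control and 1.20, 1.37 and 0.963 CPM in Hb. Its Hb libraries lay below its control libraries, but its log2 fold change of -0.80 ± 0.346 had an adjusted p of 0.240 in edgeR with Benjamini-Hochberg adjustment.

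Addition of NTR1 was compared with oxyhemoglobin alone and, as a second view that shares the same Hb+NTR1 libraries, with untreated cells. Against Hb, 1 of the 21 tested members was higher and 8 were lower, against a background of 30.7% of tested genes called higher and 31.6% called lower. Against control, 2 were higher and 8 lower, against 31.4% and 32.2%. The share of tested members called was 42.9% and 47.6%, below the 62.3% and 63.6% called among all tested genes, so being called is not in itself unusual here. The groups did not overlap in 9 of the 21 against Hb and in 12 against control, beside 64.7% and 69.9% of all tested genes. The median log2 fold change of the tested members was -0.76 against Hb and -0.96 against control, beside -0.011 and -0.004 for all tested genes. A member at low counts could pass the filter on low values through 1 group alone, so these counts describe the 21 and not the 70. The 49 untested members summed to 7.10 ± 1.77 CPM in control, 6.85 ± 1.44 in Hb, then 4.78 ± 0.248 in Hb+NTR1.

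**Figure D2:**
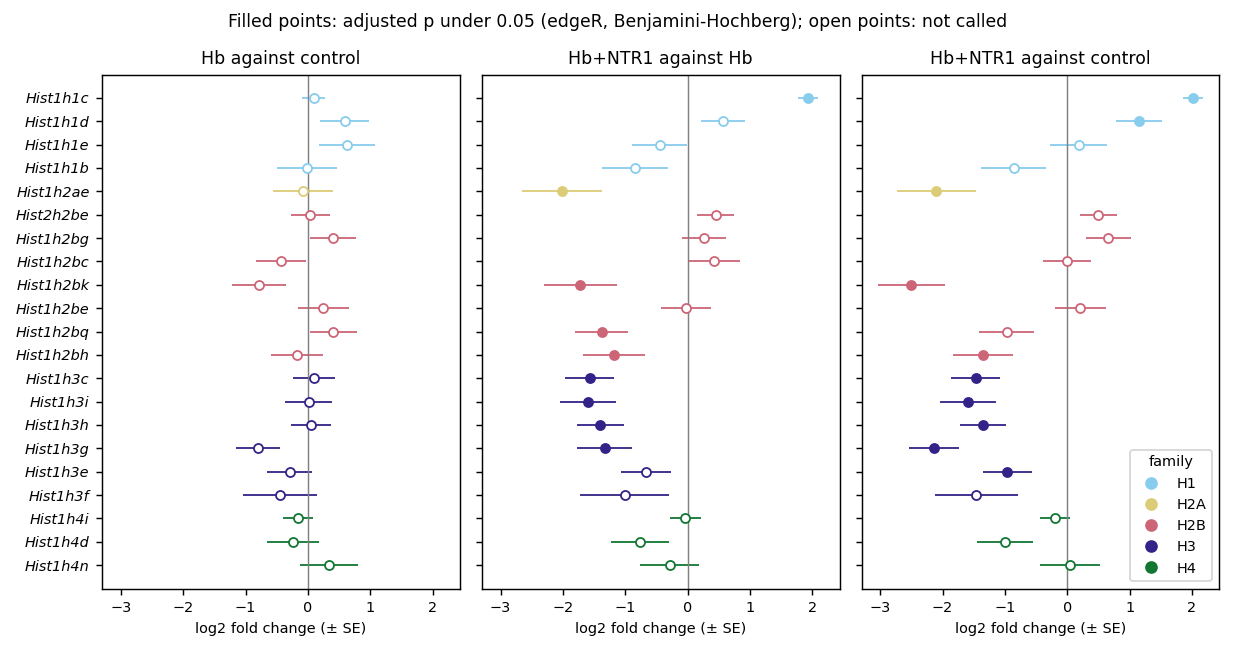
Log2 fold changes (horizontal axis, ± SE) of the 21 tested members in the 3 comparisons, coloured by family; filled points passed an adjusted p under 0.05. All points are open for Hb against control, and in both Hb+NTR1 comparisons Hist1h1c lies near 2 while the H3 points lie left of 0.

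Linker histones bind the DNA between nucleosomes and help to fold chromatin. Hist1h1c (ENSMUSG00000036181.2, chr13:23738808-23740367), a replication-type H1 gene, was at 4.39, 5.38 and 6.29 CPM in control and 4.80, 6.14 and 6.08 CPM in Hb. In Hb+NTR1 it was at 17.3, 24.1 and 23.3 CPM, with all 3 libraries far above the other 6. The raw counts were 73, 81 and 88, then 68, 90 and 82, then 253, 344 and 335. The gene was 3.80-fold higher than in Hb (log2 fold change 1.93 ± 0.159, adjusted p = 2.40e-10 by edgeR with Benjamini-Hochberg adjustment). Against control it was 4.05-fold higher (2.02 ± 0.158, adjusted p = 9.71e-11, same test), and the authors' deposited table gives a log2 fold change of 2.02 for the same pair of groups. Per length, Hist1h1c stood at 3.43 CPM per kb in control. Hist1h3i (4.81), Hist1h3h (4.37), Hist1h4i (3.99), Hist1h3g (3.87) and Hist1h2bk (3.64) stood above it there. Averaged over all libraries, Hist1h1c was at the top of the family (6.99 CPM per kb).

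Hist1h1d (ENSMUSG00000052565.7), another H1 gene with a long annotated 3' end, was at 1.14, 0.598 and 1.14 CPM in control, 1.27, 0.956 and 2.15 CPM in Hb, and 2.19, 2.66 and 1.60 CPM in Hb+NTR1. The Hb+NTR1 libraries lay above the control libraries and overlapped those of Hb. It rose against control (log2 fold change 1.15 ± 0.370, adjusted p = 0.00912 by edgeR) and not against Hb (0.57 ± 0.353, adjusted p = 0.167). Against control the call was lost without control replicate 2 (adjusted p = 0.0520) or without library N2 (adjusted p = 0.0569), and against Hb it was gained without Hb replicate 3 (adjusted p = 0.0472). Hist1h1e and Hist1h1b, the other tested H1 genes, were not called in either comparison, with log2 fold changes of -0.45 and -0.85 against Hb. Without library N1, however, Hist1h1b was lower in Hb+NTR1 against both groups (log2 fold change -1.76 in each, adjusted p = 0.0240 against Hb and 0.0223 against control), since it had 15 counts in N1 and 2 and 6 in the others. Hist1h1a was seen at 15 counts and the testis gene Hist1h1t at 1 count over all 9 libraries.

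**Figure D3:**
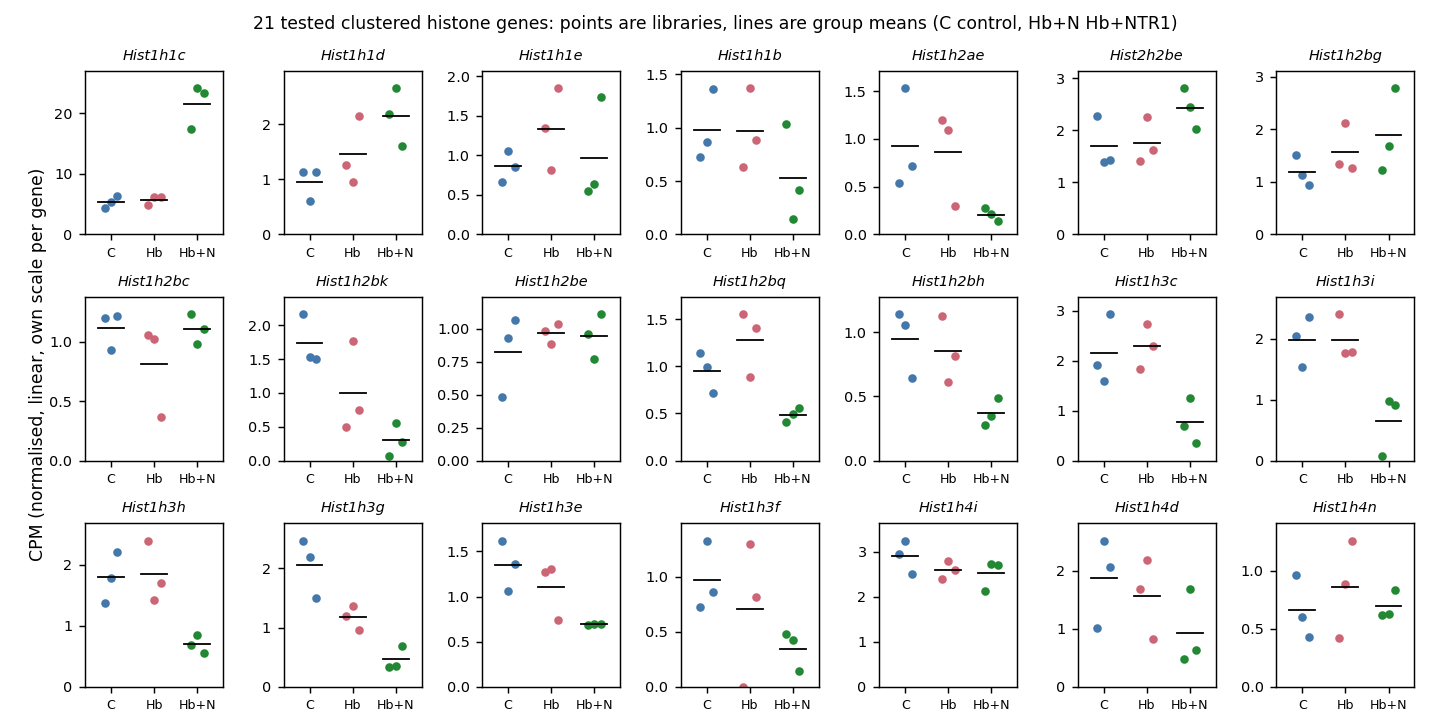
Normalised CPM of each of the 21 tested members, with 1 point per library, a line at the group mean and a linear axis from 0 that differs between panels. Hist1h1c rises from 4.39 to 6.29 CPM in control to 17.3 to 24.1 CPM in Hb+NTR1, whereas Hist1h4i lies between 2.12 and 3.25 CPM in all 9 libraries.

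H3 genes encode the core histone whose tail carries many of the well-known chromatin marks. The 12 H3 genes summed to 11.6, 10.2 and 12.7 CPM in control, 9.73, 10.6 and 9.11 CPM in Hb, and 3.97, 4.98 and 4.10 CPM in Hb+NTR1. All Hb+NTR1 libraries lay below the others, and the group mean was 2.25-fold lower than in Hb and 2.64-fold lower than in control. Of the 6 tested H3 genes, 4 fell against Hb and 5 against control, with 0 rising. Over all tested genes, 31.6% and 32.2% were called lower in these comparisons, and 30.7% and 31.4% higher. The untested Hist1h3d, with 59 counts in all, averaged 0.567 CPM in control, 0.234 in Hb, then 0.508 in Hb+NTR1. The median log2 fold change of the 6 tested H3 genes was -1.37 against Hb and -1.46 against control.

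Hist1h3i was at 2.04, 1.53 and 2.36 CPM in control, 2.40, 1.77 and 1.78 CPM in Hb, and 0.0684, 0.982 and 0.904 CPM in Hb+NTR1. The lowest of these values is a single count in library N1, beside 14 and 13 counts in N2 and N3, and all 3 lay below the other groups. Its log2 fold change was -1.60 ± 0.449 against Hb (adjusted p = 0.00349 by edgeR). Hist1h3c was at 1.83, 2.73 and 2.30 CPM in Hb and 0.684, 1.26 and 0.348 CPM in Hb+NTR1, a change of -1.57 ± 0.389 (adjusted p = 0.00119). Hist1h3h was at 2.40, 1.43 and 1.70 CPM in Hb and 0.684, 0.842 and 0.556 CPM in Hb+NTR1, a change of -1.40 ± 0.374 (adjusted p = 0.00237). Neither gene's Hb+NTR1 libraries overlapped the Hb or the control libraries.

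Hist1h3g (chr13:23535422-23535951) was at 0.342, 0.351 and 0.695 CPM in Hb+NTR1, below all Hb and control libraries. It changed by -1.33 ± 0.437 against Hb (adjusted p = 0.0106 by edgeR) and by -2.14 ± 0.402 against control (adjusted p = 6.51e-05). Without library N1 the first of these had an adjusted p of 0.0506. The authors' deposited table lists it at -2.15 against control. Hist1h3e fell against control, but its change of -0.96 ± 0.387 (adjusted p = 0.0350) lost its call in 7 of 13 alternatives, among them each of the fits without control replicate 1, control replicate 3, or library N1, N2 or N3, with a largest adjusted p of 0.131. Hist1h3f was not called (-1.46 ± 0.668 against control, adjusted p = 0.0614), and had 0 counts in Hb replicate 1. Against control it was called with no filter on low counts (adjusted p = 0.0288), with only the 6 libraries of the comparison (0.00984) and with column number as a block (0.0432). Without Hb replicate 1 it was called against Hb (-1.60, adjusted p = 0.0184).

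H2A and H2B form the dimers that are added to each side of a nucleosome, and their genes often sit head to head. Of the 20 H2A genes only Hist1h2ae had enough counts to be tested. It was at 0.541, 1.53 and 0.715 CPM in control, 1.20, 1.09 and 0.296 CPM in Hb, and 0.274, 0.210 and 0.139 CPM in Hb+NTR1, where the highest library was just under the lowest Hb library. The Hb+NTR1 values rest on 4, 3 and 2 counts, at or near the 3 counts that a count of 0 cannot exclude (0.205 to 0.210 CPM in these libraries, for counting error only). The log2 fold change was -2.02 ± 0.640 against Hb (adjusted p = 0.00849 by edgeR) and -2.10 ± 0.628 against control (adjusted p = 0.00551), and the latter was lost without control replicate 2 (adjusted p = 0.0638).

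Of the 19 H2B genes, 7 were tested. Of these 7, 3 fell against Hb and 2 against control, beside 31.6% and 32.2% of all tested genes called lower. These small counts of falls are near that background. In both comparisons 0 of the 7 rose, beside 30.7% and 31.4% of all tested genes called higher. The sum of the 19 overlapped between all groups (10.5 ± 1.46, 10.3 ± 1.95 and 8.55 ± 0.781 CPM). Hist1h2bk (chr13:22035870-22036345) was at 2.16, 1.53 and 1.5 CPM in control, 0.494, 1.77 and 0.741 CPM in Hb, and 0.0684, 0.561 and 0.278 CPM in Hb+NTR1. Its Hb+NTR1 libraries lay below control and overlapped Hb. It changed by -2.50 ± 0.538 against control (adjusted p = 0.000297 by edgeR), where the authors' deposited table has -2.52. Against Hb it changed by -1.72 ± 0.586 (adjusted p = 0.0137), a call that was lost without Hb replicate 2 (-1.01, adjusted p = 0.177) or without library N1 (-1.25, adjusted p = 0.0850).

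Hist1h2bq fell against Hb (-1.38 ± 0.427, adjusted p = 0.00718 by edgeR), from 1.55, 0.887 and 1.41 CPM to 0.410, 0.491 and 0.556 CPM, and its change against control of -0.97 ± 0.440 was not called (adjusted p = 0.0586) except without control replicate 3 (adjusted p = 0.0483). Hist1h2bh fell against Hb (-1.18 ± 0.493, adjusted p = 0.0407) and control (-1.35 ± 0.478, adjusted p = 0.0170) on 4, 5 and 7 counts in Hb+NTR1. The first call was lost without Hb replicate 1 (0.166), Hb replicate 3 (0.0686), N1 (0.141) or N2 (0.103), and the second without control replicate 1 (0.0679), control replicate 2 (0.0504), N1 (0.0783) or N2 (0.0562), all as adjusted p.

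Other tested H2B members were not called in either comparison. Hist2h2be, on chromosome 3, was at 1.41, 2.25 and 1.63 CPM in Hb and 2.81, 2.45 and 2.02 CPM in Hb+NTR1, which overlap (log2 fold change 0.45 ± 0.299, adjusted p = 0.192 by edgeR). Hist1h2bg had 1.34, 2.12 and 1.26 CPM in Hb and 1.23, 1.68 and 2.78 CPM in Hb+NTR1 (0.26 ± 0.351, adjusted p = 0.531), and against control it was called only without library N1 (0.90, adjusted p = 0.0489). Hist1h2bc and Hist1h2be changed by 0.43 and -0.03 against Hb, neither called. A p that misses the threshold does not show that these levels were the same.

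Hist1h2ae and Hist1h2bg share a promoter region: their annotated starts are 176 bases apart on opposite strands. The H2A member of the pair was lower with NTR1 and the H2B member was not called, and the difference between the 2 changes was not tested. In all, 14 such head-to-head H2A and H2B pairs were found with starts 173 to 306 bases apart. The H2B member had more counts than the H2A member in 11 of the 14, for example 136 against 5 for Hist1h2bk and Hist1h2ah, and 259 against 7 for Hist2h2be and Hist2h2ac. The H2A member had more in 2 pairs, and the remaining pair was listed at 0 for both. Hist1h2aj, paired with Hist1h2bm, and Hist3h2bb-ps, paired with Hist3h2a, are annotated as pseudogenes. The pair with Hist3h2bb-ps has the shortest distance, and in it the H2A member had more counts (47 against 5). Among the 11, Hist1h2br and Hist1h2ap had 2 counts against 0. These raw counts were not corrected for length (Hist1h2bk 476 and Hist1h2ah 405 bases, Hist2h2be 2620 and Hist2h2ac 520). Nor do they allow for shared sequence (median 71.55% for H2A, 36.9% for H2B) or opposite-strand overlaps, both described below. The part of these features in the difference was not tested.

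H4 pairs with H3 in the core of the nucleosome. None of the 3 tested H4 genes was called in either comparison, beside 62.3% and 63.6% of all tested genes. Hist1h4i, the most abundant of them, was at 2.95, 3.25 and 2.50 CPM in control, 2.40, 2.80 and 2.59 CPM in Hb and 2.12, 2.73 and 2.71 CPM in Hb+NTR1, so all groups overlapped (log2 fold change -0.04 ± 0.247 against Hb, adjusted p = 0.893 by edgeR). Hist1h4d had 1.69, 2.18 and 0.815 CPM in Hb and 0.479, 1.68 and 0.626 CPM in Hb+NTR1. It was not called (-0.76 ± 0.465 against Hb, adjusted p = 0.161, and -1.0 ± 0.452 against control, adjusted p = 0.0583), but was without library N2, the highest of its 3 (-1.49, adjusted p = 0.0211, and -1.73, adjusted p = 0.00718), and against control also without control replicate 1 (adjusted p = 0.0171), with no filter (0.0272), with only the 6 libraries of the comparison (0.0272) and with column number as a block (0.0227). Summed over the 13 H4 genes the level was 7.88 ± 0.520 CPM in control, 7.67 ± 1.53 in Hb, then 5.88 ± 1.18 in Hb+NTR1.

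Members were also split by whether the annotated 3' end holds AATAAA, a split chosen after their values had been seen. The 19 members with it summed to 14.7 ± 0.900 CPM in control, 15.8 ± 0.508 in Hb, then 30.7 ± 3.58 in Hb+NTR1, and without Hist1h1c to 9.31 ± 1.09, 10.1 ± 0.442 and 9.11 ± 0.302. The 51 members without it summed to 25.7 ± 0.902, 23.7 ± 3.58 and 14.8 ± 1.66 CPM, with every Hb+NTR1 library below the others. Among 8 tested members with AATAAA, 1 rose and 3 fell against Hb (median log2 fold change 0.20). Among 13 without it, 0 rose and 5 fell (median -0.85). Over all tested genes 30.7% were called higher and 31.6% lower, so the counts of falls are near that background in both classes. The class without AATAAA includes members with no annotated 3' untranslated region to search, among them Hist1h3h and Hist1h3i, which fell. The 2 classes were not tested against each other.

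Promoters of histone genes are compact and carry motifs that bind factors shared within a family. RefSeq promoters on GRCm38.p6, from 250 bases before to 50 after the start, were matched for 62 of the 70 members. CCAAT on either strand was present in 53 of 62 (85.5%), beside 37.4% of all 32851 promoters in the table, and TATAAA in 35 (56.5%), beside 13.6%. AAACACA, known from H1 genes, was present in 9 members (14.5%, beside 7.18%), of which 5 were among the 6 H1 genes, 2 among 18 H2A, 2 among 16 H2B and 0 among 10 H3 and 12 H4. CCAAT was in every matched H1, H2A, H2B and H3 promoter and in 3 of 12 H4 promoters. Windows of head-to-head H2A and H2B genes overlap, so the same stretch of DNA can count for both members. The AAACACA of Hist1h2aa and that of Hist1h2ba are the same site, and the windows of Hist1h2bq and Hist1h2br have the same sequence. These shares therefore do not count separate promoters. A match of letters is a description and not a measured binding site. The promoters of the member that rose most and of an H3 member that fell are shown, with these motifs in capitals on either strand.

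Hist1h1c, chr13:23738557-23738856, plus strand: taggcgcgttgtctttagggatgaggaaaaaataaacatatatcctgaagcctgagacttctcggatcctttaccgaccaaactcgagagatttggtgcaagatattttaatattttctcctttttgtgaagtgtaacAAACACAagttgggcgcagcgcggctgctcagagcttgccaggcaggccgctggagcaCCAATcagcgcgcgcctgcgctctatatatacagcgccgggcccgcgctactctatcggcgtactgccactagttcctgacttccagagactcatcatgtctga
Hist1h3i, chr13:21783348-21783647, minus strand: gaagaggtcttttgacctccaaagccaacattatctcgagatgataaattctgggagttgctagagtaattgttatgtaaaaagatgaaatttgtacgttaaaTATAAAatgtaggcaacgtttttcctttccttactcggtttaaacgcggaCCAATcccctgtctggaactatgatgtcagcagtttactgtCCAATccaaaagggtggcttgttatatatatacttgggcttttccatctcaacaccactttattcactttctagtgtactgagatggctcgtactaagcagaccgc

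Several measurements bear on how well a read can be placed in this family. Because the proteins are nearly alike, the genes share long stretches: 65 of the 70 members share at least 1 window of 75 bases with another gene, and in 32 more than 50% of windows are shared. The median share of shared windows was 0.75% for H1, 24.6% for H4, 36.9% for H2B, 59.0% for H3 and 71.55% for H2A. Hist1h1c shared 6.70% of its windows and Hist2h2be 0%, so most of their sequence is their own, while Hist1h3i shared 78.3% and Hist1h3h 93.5%. The sources used here do not say how reads with several matches were counted, so values of single H2A, H3 and many H2B genes are uncertain. Sums over a family are less so only if such reads were counted within the family, which is not known.

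**Figure D4:**
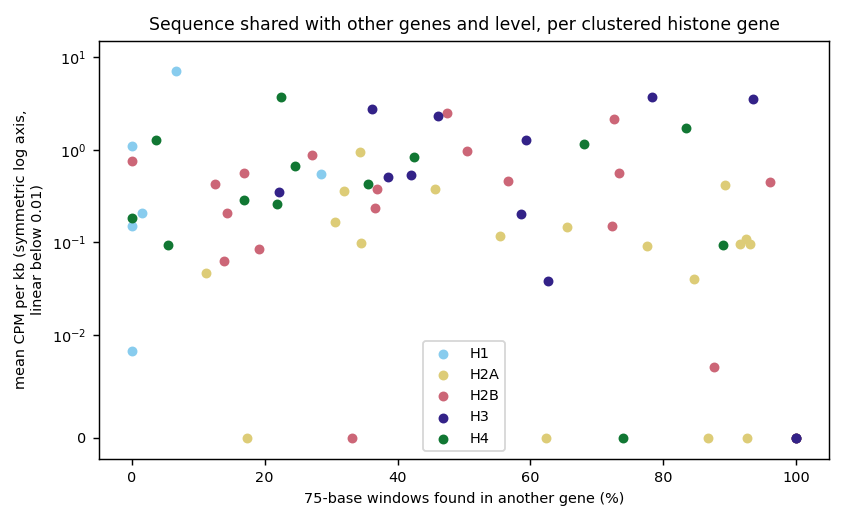
Each point is a clustered histone gene, with the percentage of its 75-base windows found in another gene on the horizontal axis and its mean CPM per kb over 9 libraries on a symmetric log axis. H1 points lie at the left, H2A points spread to the right, and H3 genes such as Hist1h3i reach 3.75 CPM per kb at a shared share of 78.3%.

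Overlaps add to this. All 20 H2A genes overlap an annotated gene on the opposite strand. Hist2h2aa1 and Hist2h2aa2 were listed at 0 in all libraries, and lie wholly within the antisense entries Gm20633 and Gm20632. These were named after their values had been seen. Gm20633 was at 1.20, 1.30 and 1.26 CPM in Hb and 5.75, 5.96 and 6.60 CPM in Hb+NTR1 (log2 fold change 2.28 ± 0.249, adjusted p = 2.95e-08 by edgeR), and Gm20632 at 1.83, 1.02 and 1.63 CPM in Hb and 4.99, 4.42 and 3.48 CPM in Hb+NTR1 (1.52 ± 0.286, adjusted p = 6.51e-05). Gm20633 and Gm20632 have 2831 and 2427 exonic bases, beside 586 and 528 for Hist2h2aa1 and Hist2h2aa2. Most of each antisense entry thus lies outside its histone gene. Without a stated strand setting, it is not known which strand reads from the overlapping part came from, or how they were counted. On the same strand, Hist1h1e and Hist1h2be overlap each other.

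RNAs that normally lack a poly(A) tail were taken as a measure of how much such RNA entered the libraries. Of 30 listed small nuclear and similar RNAs in the table, 6 were tested, and their list summed to 10.3 ± 0.330 CPM in control, 13.6 ± 0.660 in Hb, then 10.6 ± 1.54 in Hb+NTR1. Against Hb, 1 of the 6 was higher and 2 were lower, beside 30.7% and 31.6% of all tested genes. Their part in the histone values was not tested.

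Replacement histone genes lie outside the clusters, are made through the cell cycle and carry poly(A) tails. Of 10 tested, 3 rose and 7 fell against Hb, a called share of 100% beside 62.3% of all tested genes (30.7% higher and 31.6% lower). H3f3b, which encodes the replacement form of H3, was at 861, 983 and 942 CPM in Hb and 1560, 1570 and 1650 CPM in Hb+NTR1, so groups did not overlap (log2 fold change 0.78 ± 0.0657, adjusted p = 3.55e-10 by edgeR). H3f3a, with the same protein product, rose by 0.36 ± 0.0798 (adjusted p = 0.000423). Against control, H3f3b rose by 0.47 ± 0.0654 (adjusted p = 1.05e-06) and H3f3a was not called (0.16 ± 0.0789, adjusted p = 0.0807), though it was with library totals alone (0.0163) and with only the 6 libraries of the comparison (0.0297). H3f3b had fallen in Hb against control by 0.31 (adjusted p = 0.00626, or 0.0838 without control replicate 3). Per length in control, H3f3b stood at 386 CPM per kb, H3f3a at 20.3 and the highest cluster H3 gene at 4.81.

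H2afx encodes the H2A variant phosphorylated at DNA breaks, and its mRNA is known to end either in a stem-loop or in a poly(A) tail. It was at 39.4, 41.0 and 33.3 CPM in Hb and 9.17, 12.1 and 9.39 CPM in Hb+NTR1, a log2 fold change of -1.89 ± 0.117 (adjusted p = 1.41e-12 by edgeR), the largest of the variants against Hb. H2afy2, a macroH2A gene, fell by 1.49 and H2afj by 1.04 on the log2 scale. H2afv, Cenpa (the centromere form of H3), H2afy and H2afz fell by 0.66, 0.63, 0.53 and 0.32. The replacement linker gene H1f0 was at 412, 445 and 420 CPM in Hb and 503, 533 and 511 CPM in Hb+NTR1 (0.28 ± 0.0592, adjusted p = 0.000275), while its level against control changed by 0.04, not called.

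Genes that make and trim histone mRNA moved in both directions. Of 30 tested, 13 rose and 8 fell against Hb, a called share of 70% beside the 62.3% of all tested genes. Slbp, whose protein holds the stem-loop, was at 75.2, 85.7 and 91.4 CPM in Hb and 128, 121 and 122 CPM in Hb+NTR1, with no overlap (0.56 ± 0.0747, adjusted p = 7.17e-07 by edgeR). Npat, the coactivator of histone gene transcription, rose by 0.61 ± 0.0844 (adjusted p = 1.10e-06), and Casp8ap2, another factor of the histone locus, by 0.25 ± 0.0697 (adjusted p = 0.00297). Lsm11, part of the U7 particle that directs the cut after the stem-loop, fell by 0.59 (adjusted p = 5.53e-06), and its partner Lsm10 was not called (-0.11, adjusted p = 0.393). Eri1, an exonuclease that trims histone mRNA ends, rose by 0.22 (adjusted p = 0.00501). Among genes of ordinary polyadenylation, Papolg rose by 0.82 and Cstf3 by 0.71 while Cpsf1 had a log2 fold change of -0.87.

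**Figure D5:**
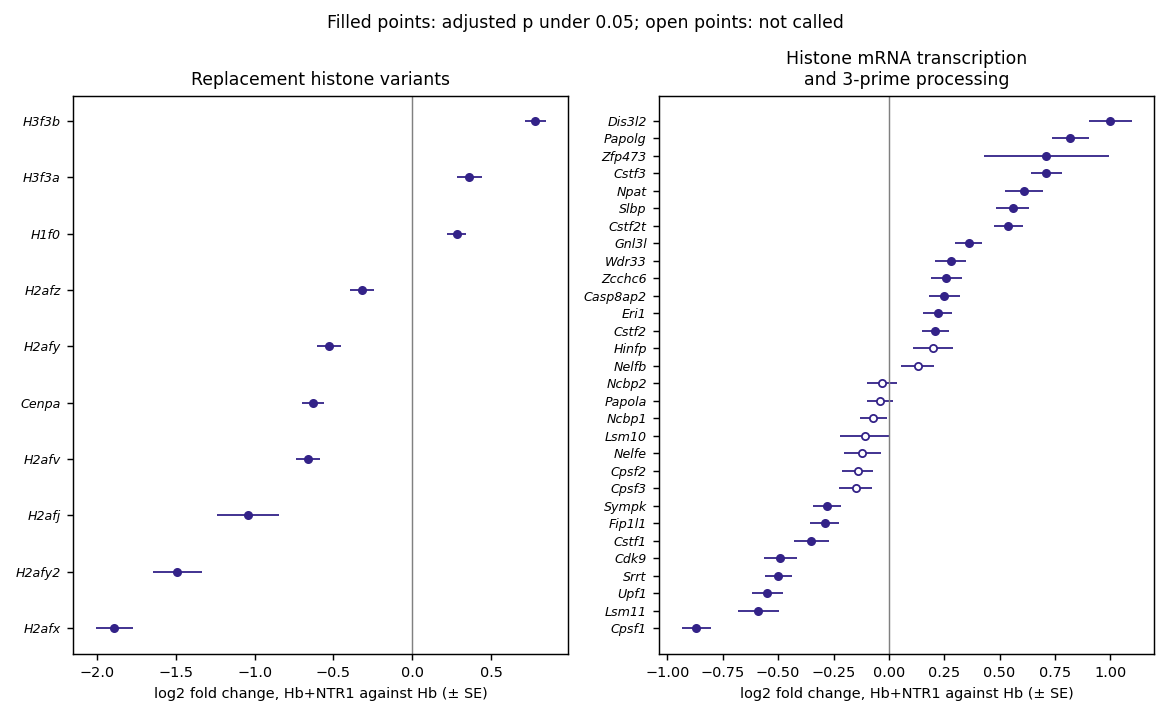
Log2 fold changes of Hb+NTR1 against Hb (± SE) for 10 tested replacement variants and 30 tested genes of histone mRNA transcription and 3' processing; filled points passed an adjusted p under 0.05. H3f3b lies at 0.78 and H2afx at -1.89, and the processing genes span -0.87 (Cpsf1) to 1.00 (Dis3l2).

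Histone chaperones carry new histones to DNA. Of 24 tested, 6 rose and 11 fell against Hb (70.8% called, beside 62.3% of all tested genes). Their sum was 7750 ± 331 CPM in Hb and 7580 ± 144 in Hb+NTR1. Nasp, which holds H3, H4 and H1, was not called (0.08, adjusted p = 0.290 by edgeR) except without Hb replicate 2 (0.15, adjusted p = 0.0246). Spty2d1 and Ubn1, both linked to H3 deposition, rose by 1.11 and 0.96. Ipo4, which imports H3 and H4, and Nap1l1, which holds H2A and H2B, had log2 fold changes of -0.88 and -0.66.

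Because cluster histone mRNA is made in S phase, genes of S phase entry and nucleotide supply were set beside it. Of 27 tested, 7 rose and 14 fell against Hb (77.8% called, beside 62.3% of all tested genes). Their median log2 fold change was -0.17. Pcna, the sliding clamp of replication, rose by 0.57 ± 0.0650 (adjusted p = 6.27e-08 by edgeR). Tk1, the thymidine kinase of S phase, had a log2 fold change of -0.97 ± 0.0687 (adjusted p = 1.79e-11) and E2f8 of -1.0 ± 0.0877 (adjusted p = 7.60e-10). The list did not move in 1 direction. Among 13 tested genes of arrest and differentiation, 8 rose and 2 fell against Hb (76.9% called, beside 30.7% higher and 31.6% lower over all tested genes): Cdkn1a, an inhibitor of cyclin-dependent kinases, was at 105, 115 and 104 CPM in Hb and 166, 199 and 181 CPM in Hb+NTR1, Btg2 rose by 2.58 and Gas1 had a log2 fold change of -2.93. The part of the cell cycle in the histone values was not tested.

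Cell type markers moved with the same libraries. Neuron markers were mostly absent: 18 of 23 were under 1 CPM in control, and Map2, Snap25, Slc17a6 and Gad1 were listed at 0 in all libraries, which goes against the neuronal label. Others were present, among them Dlg4 at 70.1, Ncam1 at 68.3 and Tubb3 at 32.6 CPM in control. Of 6 tested, 1 rose and 4 fell against Hb, beside 30.7% called higher and 31.6% called lower over all tested genes. Elavl3 rose from a mean of 0.474 CPM in Hb to 1.91 in Hb+NTR1 (adjusted p = 0.000192 by edgeR), and Tubb3 fell from 36.7 to 5.25 (adjusted p = 2.44e-15). The neuron list summed to 198 to 206 CPM in control, 191 to 208 in Hb, then 130 to 134 in Hb+NTR1. Of 11 tested fibroblast markers 11 fell against Hb, beside 31.6% of all tested genes called lower. The fibroblast list of 13 summed to 19300 to 20500 CPM in control, 15700 to 17600 in Hb, then 3160 to 3280 in Hb+NTR1. Of 12 astrocyte and microglia markers 3 were tested and fell against Hb, beside the same 31.6%, and Aqp4 and P2ry12 were listed at 0. Their list summed to 218 to 247, 128 to 153 and 12.7 to 14.3 CPM. Their part in the histone values was not tested.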

How the data were processed

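Poly(A)-selected RNA was sequenced on an Illumina NovaSeq, per the labels' protocols. The submitters' processing notes name GRCm38, HTSeq 0.10.0, HISAT2 2.1.0 and bcl2fastq 2.19.1.403. Annotation release, strand setting and the counting of reads with several matches: not given in the sources used here. The authors deposited whole-number counts for each symbol, with no scaling. Of 54232 entries, 98 repeats of a symbol with identical counts were removed. A second deposited table, of Hb+NTR1 against control, holds the authors' log2 fold changes and adjusted p-values from a test the sources used here do not name. Count columns named N were taken as Hb+NTR1, since that table holds only N and C columns. Their numbers, 1 to 3, are not tied to replicate labels by the sources used here.

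The analysis used edgeR 4.0.16 under R 4.3.3. A filterByExpr minimum count of 10 left 13810 genes. TMM scaling and a quasi-likelihood fit with robust dispersion used all 9 libraries with a term for group, with two-sided tests and Benjamini-Hochberg adjustment per comparison over 13810 genes at 0.05. Each SE was taken as |log2 fold change| over the square root of F. CPM used TMM-scaled totals, and a count of 0 allows up to 3 counts, or 0.180 to 0.222 CPM. The fit was tested on simulated data. Replicate libraries differed by more than sampling noise (chi-square per degree of freedom 2.49 to 12.8). Alternatives were DESeq2 1.42.0, DESeq2 size factors, library totals, 2 filters, 6 libraries only, a replicate block (also by column number, an alternative chosen after seeing the data) and each library left out.

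Member features came from GENCODE M21 on GRCm38 and promoters from RefSeq on GRCm38.p6. Named genes were all 21 tested members, up to 4 called genes with the largest change per comparison in each list, and a set of histone locus genes and variants. The members and lists were chosen with earlier results of these data known. Some genes picked by this rule are not reported here.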

Additional observations from a re-analysis of the deposited data

How the results depend on the processing

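The number of members called stayed within 1.5 times in every alternative: 0 for Hb against control, 6 to 9 for Hb+NTR1 against Hb and 8 to 13 against control. The log2 ratio of summed histone CPM depended on a single gene. Without Hist1h1c it was -0.50 in place of 0.20 for Hb+NTR1 against Hb and -0.55 in place of 0.17 against control. Leaving out 1 library each time, it ran from -0.12 to 0.02 for Hb against control, 0.14 to 0.30 for Hb+NTR1 against Hb, and 0.11 to 0.26 against control. For single genes, 3008 of 3133 values kept their side of the threshold, 97 lost a call, 28 gained one and 0 calls were scored as reversed. Changes that were not called could switch sign, as for Hist1h1e in Hb+NTR1 against control (log2 fold change -0.53 to 0.47). Besides the calls given above, Hist1h2bh against Hb, and Hist1h3e against control, were lost with DESeq2 (adjusted p = 0.0746 and 0.0667) and with no filter (0.0938 and 0.0762).

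With the replicate block, 0 members were called for Hb against control. With the number in the column name as a block over all 9 libraries, 0, 8 and 12 members were called in place of 0, 9 and 10, and Hist1h2bh against Hb had an adjusted p of 0.0543. Correlations of same-numbered libraries ran from -0.049 to 0.095 over the 3 pairs of groups. Between differently numbered control and Hb libraries they ran from -0.116 to 0.139. With 3 libraries per group, such values can neither show nor exclude a pairing. Low counts limit most members: 49 of 70 had too few counts to test, and several tested ones rest on under 10 counts per library.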
